A study of Homo sapiens with 12 samples.

Results

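The aminoacyl-tRNA synthetases are the enzymes that join each amino acid to its transfer RNA. Here 36 of their genes were followed in HCT116 cells, a human colorectal cancer line, during a time course of hypoxia. The members are defined by gene name, with no measured value in the rule, though the family was picked with earlier results of these data known, and they make up 36 of the 56537 gene names in the transcript table. The 20 cytosolic genes charge tRNA for translation in the cytosol, and the 16 mitochondrial genes, whose names end in 2, charge tRNA inside the mitochondrion. Cells kept at 21% oxygen gave the 0 h libraries, and cells moved to 1% oxygen gave the libraries at 1, 2 and 24 h, with 3 biological replicates at each of the 4 time points. Poly(A) RNA was sequenced with strand information, and no culture held at 21% oxygen for the same 24 h was analysed here, so in the 24 h comparison low oxygen cannot be told apart from longer culture.

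The synthetases fall into 2 structural classes that bind ATP in different ways, and each enzyme proofreads or selects its amino acid before the charged tRNA is handed to an elongation factor. In human cells several cytosolic synthetases sit together in the multisynthetase complex, held by the scaffold proteins AIMP1, AIMP2 and AIMP3 (gene EEF1E1). Nuclear genes encode the mitochondrial enzymes, which are imported. KARS and GARS each supply the cytosol and the mitochondrion from a single gene, and glutaminyl-tRNA in mitochondria is made by an amidotransferase instead of a dedicated synthetase. Several cytosolic synthetase genes are known targets of ATF4, the transcription factor that is translated when amino acids run short, and 1 type of site for it has the core TGATGNAA.

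Levels are FPKM, fragments counted per length of transcript and per depth of the library, summed over all transcripts of a gene name, so they may be compared between genes. An FPKM is a share of the library, so less of a transcript per cell and more of other RNA cannot be told apart. Across the libraries, transcripts under 300 bases carried between 57.0% and 87.6% of all FPKM but at most 0.0652% of the FPKM of the synthetases. The hypoxia genes CA9, NDRG1, ANKRD37, PDK1, VEGFA and ADM were all called higher at 24 h, by 1.90 to 5.45 on the log2 scale. The epithelial genes EPCAM, KRT8, KRT18, KRT19 and CDH1 were expressed, with CDH1 (7.42 to 26.3 FPKM) and KRT19 (489.5 to 971 FPKM) called higher at 24 h and the other three not called. VIL1 was below 0.02 FPKM on average at 0 and 24 h, and the blood and endothelial genes PTPRC, CD3E, HBB and PECAM1 were listed at 0 at both times. The macrophage gene CD68 had a mean of 2.01 FPKM at 0 h and 10.2 FPKM at 24 h, and the fibroblast gene COL1A1 1.92 and 6.87 FPKM. Summed over all 9 markers of other cell types, the libraries held 3.61 to 4.47 FPKM at 0 h and 15.4 to 20.3 FPKM at 24 h, nearly all of it CD68 and COL1A1, and the part of this in the results was not tested. Other gene names share a locus in the table with AARS, FARSB, HARS, LARS, QARS, AARS2, EARS2, HARS2, SARS2, VARS2 and YARS2, so the levels of these are less certain.

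Promoter sequence is given for the genes that hold the ATF4-type core, since several of them recur below in a pattern shared by replicates. RefSeq windows of 300 bases around the annotated starts (GRCh38.p14) were available for 16 of the 20 cytosolic and 14 of the 16 mitochondrial genes. The letters TGATGNAA, read on both strands, were found in 7 of the 16 cytosolic genes (AARS, CARS, GARS, IARS, MARS, NARS and TARS) and in 1 of the 14 mitochondrial genes (YARS2). Among all 35116 promoter windows, 3.62% held them, and 4.46% of the 27305 gene symbols had them in any window. The 30 bases around each match are shown on the strand of the gene, with the match in capitals, and ASNS, asparagine synthetase, is added as a well-known ATF4 target:
AARS: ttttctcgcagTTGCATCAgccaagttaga
CARS: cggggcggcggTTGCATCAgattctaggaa
GARS: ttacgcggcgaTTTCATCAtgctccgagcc
IARS: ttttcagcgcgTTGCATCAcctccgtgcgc
MARS: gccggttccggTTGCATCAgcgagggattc
NARS: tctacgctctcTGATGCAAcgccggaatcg
TARS: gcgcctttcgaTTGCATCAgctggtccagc
YARS2: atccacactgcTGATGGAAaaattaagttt
ASNS: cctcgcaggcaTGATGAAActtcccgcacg

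These stretches lie at chr16:70289675-70289704 for AARS, chr11:3057407-3057436 for CARS, chr7:30594834-30594863 for GARS, chr9:92293692-92293721 for IARS and chr12:57488053-57488082 for MARS. Those of NARS, TARS, YARS2 and ASNS lie at chr18:57621804-57621833, chr5:33440956-33440985, chr12:32756076-32756105 and chr7:97872458-97872487. AARS, CARS, IARS, NARS, YARS2 and ASNS are on the minus strand and GARS, MARS and TARS on the plus strand. The core of the hypoxia response element, ACGTG on either strand, was found in 4 of 16 cytosolic genes (CARS, EPRS, IARS and WARS), in 5 of 14 mitochondrial genes (CARS2, EARS2, MARS2, NARS2 and TARS2) and in 21.4% of all windows, or 24.9% of gene symbols in any window. A match is a description of the letters and not a measured binding site.

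At 0 h the cytosolic genes were the more abundant, with a median of 86.7 FPKM over the 20 gene means against 16.4 FPKM over the 16 mitochondrial ones. NARS (171 ± 5.24 FPKM, SD, n = 3), KARS (162 ± 13.5) and TARS (144 ± 13.1), for asparagine, lysine and threonine, stood at the top, and the libraries of each gene in this order overlapped those of the next down to DARS. IARS2, mitochondrial isoleucyl-tRNA synthetase, was the only mitochondrial gene ranked above a cytosolic gene other than CARS, at 69.1 ± 6.21 FPKM, and did not separate from QARS above it or VARS below it. CARS, for cysteine, was the lowest cytosolic gene at 30.3 ± 6.73 FPKM, and PARS2, for proline, the lowest of all at 4.37 ± 0.314 FPKM.

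After 24 h at 1% oxygen most synthetase genes fell. Of the 20 cytosolic genes 12 were lower, 2 were higher and 6 did not pass the test, which was limma on log2(FPKM + 0.5) over 16680 gene names with a call at a Benjamini-Hochberg adjusted p below 0.01. Of the 16 mitochondrial genes 10 were lower, 0 were higher and 6 did not pass. Among all gene names tested, 23.2% were called lower and 18.3% higher, 41.5% in all. The median log2 fold change was -0.83 for the cytosolic genes and -0.56 for the mitochondrial genes, beside -0.05 for all gene names. Falls of more than 2-fold were seen in 6 cytosolic genes (WARS, FARSB, MARS, FARSA, NARS and TARS) and 2 mitochondrial genes (MARS2 and LARS2), and 9.51% of all gene names fell that far. No synthetase rose by more than 2-fold, where 8.76% of all gene names did. The libraries at 24 h were all below those at 0 h for 16 of 20 cytosolic and 11 of 16 mitochondrial genes, and all above for 2 and 0, where 32.8% and 27.6% of all gene names did so.

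The scale matters for direction. Rescaling each library to TPM, a fixed total that includes the short transcripts, moved the median of all gene names at 24 h from -0.05 to -0.78, with 251 gene names called higher and 4195 lower of 14531 tested instead of 3053 and 3874. On that scale 13 cytosolic and 10 mitochondrial genes were lower and 0 were higher, beside 28.9% and 1.73% of all gene names tested. TPM computed over transcripts of at least 300 bases gave 13 lower and 2 higher cytosolic genes and 11 lower mitochondrial genes, beside 25.9% lower and 15.0% higher of 17187 gene names, with a median of -0.14 over those also tested in FPKM. With median-of-ratios scaling the counts were 12 lower and 2 higher among the cytosolic genes and 10 lower among the mitochondrial ones, beside 21.8% lower and 19.8% higher of 16659 gene names. Falls of more than 2-fold numbered 13 cytosolic and 10 mitochondrial genes as TPM over all transcripts, where 27.5% of all gene names fell that far. They numbered 9 and 4 over transcripts of at least 300 bases, beside 11.9% of all gene names, and 5 and 1 with median-of-ratios scaling, beside 8.72%.

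**Figure D1:**
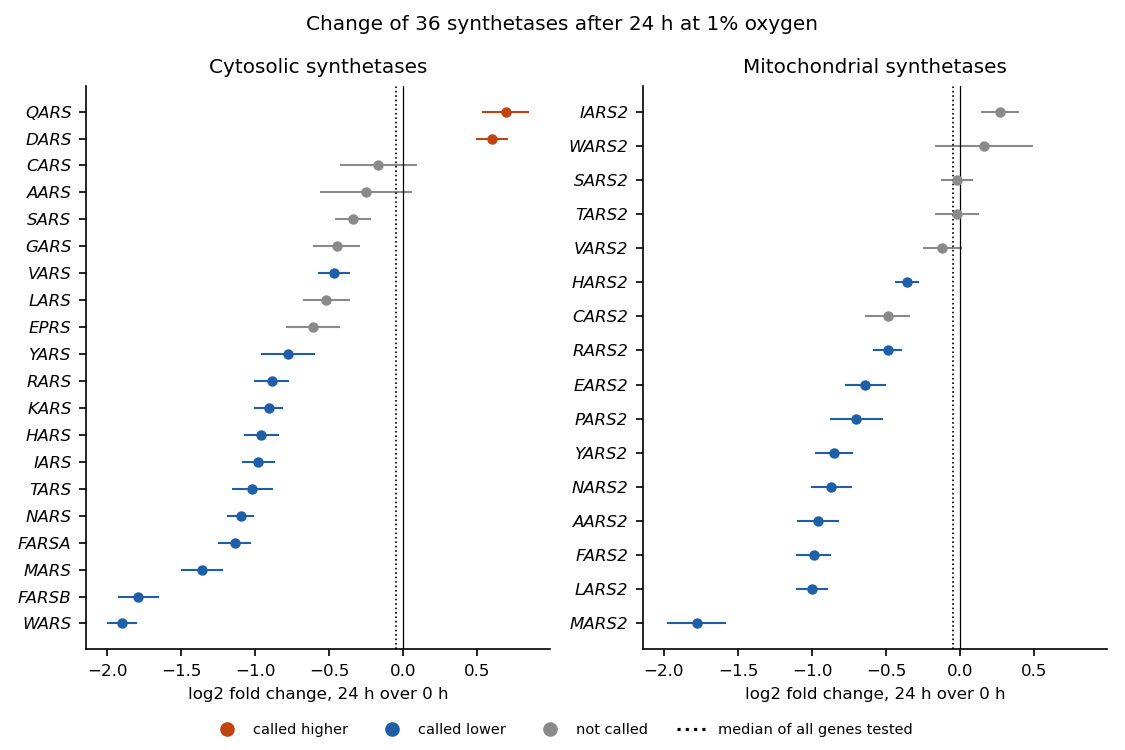
Log2 fold change of summed FPKM at 24 h over 0 h for 20 cytosolic (left) and 16 mitochondrial (right) synthetases; points are limma estimates, bars are ± 1 SE (n = 3 libraries a time point), colour gives the call and the dotted line the median of all gene names (-0.05). WARS (-1.90) and MARS2 (-1.78) are the lowest of their panels, and QARS (0.69) and DARS (0.60) are the only genes called higher, which read 0.60 and 0.51 as TPM over transcripts of at least 300 bases and -0.17 and -0.27 as TPM over all transcripts.

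WARS, tryptophanyl-tRNA synthetase (ENSG00000140105, chr14:100800127-100843142 in GRCh37, minus strand), was, with FARSB and MARS2, among the genes that fell the most, an order that depends on the pseudocount: WARS and MARS2 both read -1.92 with a pseudocount of 0.1. Its libraries read 77.4, 81.3 and 80.2 FPKM at 0 h and 23.1, 17.9 and 22.3 FPKM at 24 h, a log2 fold change of -1.90 ± 0.10 (SE, adjusted p = 1.2e-07). The 6 libraries at 1 and 2 h lay between 67.1 and 77.4 FPKM, so the gap to 24 h was wide in every replicate. FARSB and FARSA encode the subunits of cytosolic phenylalanyl-tRNA synthetase, an enzyme built from a pair of each. FARSB read 91.0, 83.5 and 83.9 FPKM at 0 h and 20.2, 23.5 and 31.4 FPKM at 24 h (-1.79 ± 0.14, adjusted p = 1.1e-06). FARSA read 84.5, 79.4 and 72.5 FPKM at 0 h and 36.9, 32.4 and 36.9 FPKM at 24 h (-1.14 ± 0.11, adjusted p = 4.1e-06). The ratio of FARSA to FARSB was thus 0.914 ± 0.045 at 0 h and 1.46 ± 0.34 at 24 h, without overlap.

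The methionyl enzymes fell in both compartments. MARS, the cytosolic enzyme, read 79.9, 85.0 and 93.1 FPKM at 0 h and 33.6, 35.2 and 30.4 FPKM at 24 h (-1.36 ± 0.14, adjusted p = 6.6e-06). MARS2, its mitochondrial counterpart, read 11.3, 10.4 and 10.4 FPKM at 0 h and 1.94, 3.12 and 3.46 FPKM at 24 h (-1.78 ± 0.20, adjusted p = 1.9e-05). In both genes every library at 24 h was below every library of the other 3 time points. MARS2 (chr2:198570093-198573119 in GRCh37, plus strand) is a single-exon gene with 1 transcript in the table, so its sum is that transcript.

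NARS, the most abundant member at 0 h, read 177, 167 and 169 FPKM there and 74.9, 80.3 and 84.6 FPKM at 24 h (-1.10 ± 0.09, adjusted p = 1.3e-06). TARS fell from 144 ± 13.1 to 70.7 ± 5.32 FPKM (-1.02 ± 0.14) and IARS, for isoleucine, from 125 ± 10.9 to 62.7 ± 3.19 FPKM (-0.98 ± 0.11). HARS (-0.96), KARS (-0.91), RARS (-0.89), YARS (-0.78) and VARS (-0.47), for histidine, lysine, arginine, tyrosine and valine, were the other cytosolic genes called lower. The YARS call ended without 0 h replicate 2 (adjusted p = 0.0127), 0 h replicate 3 (0.0105) or 24 h replicate 2 (0.0105), and the VARS call without replicate 2 or 3 of either time point (0.0119 to 0.0198), with only the 6 libraries of 0 and 24 h (0.0103), as TPM over all transcripts (0.0129) or over coding transcripts alone (-0.33, 0.0599). VARS transcripts are split over several copies of the MHC region, 72 of 88 of them on alternate haplotypes, so its level is less certain.

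**Figure D2:**
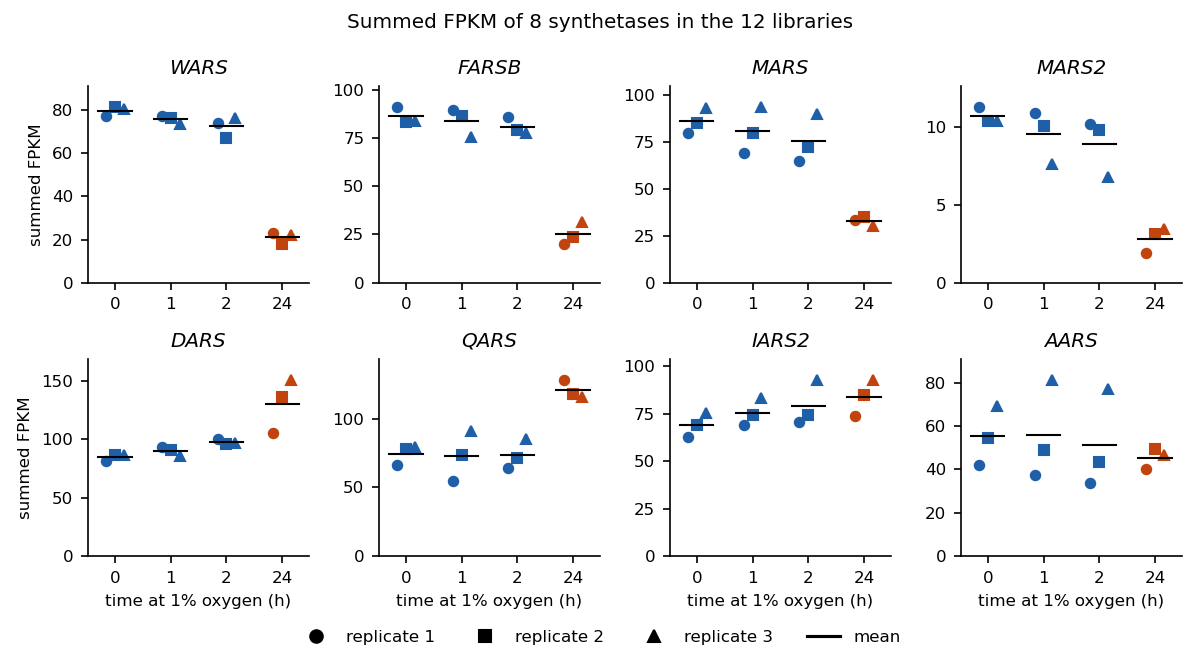
Summed FPKM of 8 synthetases (linear axis from 0) against time at 1% oxygen; each symbol is 1 library, its shape the replicate number, blue for 0, 1 and 2 h and red for 24 h, with the mean as a line. The 24 h libraries of WARS, FARSB, MARS and MARS2 lie below all others and those of DARS (105 to 150.4) and QARS (116 to 128) above all others in FPKM, where the DARS and QARS changes turn negative only as TPM over all transcripts, while IARS2 and AARS overlap.

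DARS (chr2:136663451-136743670 in GRCh37, minus strand) and QARS (chr3:49133365-49142563, minus strand), for aspartate and glutamine, went the other way in FPKM, and also as TPM over transcripts of at least 300 bases (0.51 for DARS and 0.60 for QARS, adjusted p = 0.00789 and 0.00769), though not as TPM over all transcripts. DARS read 81.4, 86.4 and 86.7 FPKM at 0 h and 105, 136 and 150.4 FPKM at 24 h (0.60 ± 0.11, adjusted p = 0.00079), and as TPM its log2 fold change was -0.27, above the TPM median of all gene names of -0.78. QARS read 66.1, 77.7 and 79.5 FPKM at 0 h and 128, 118 and 116 FPKM at 24 h (0.69 ± 0.16, adjusted p = 0.0034), and as TPM -0.17. The QARS call was lost without 0 h replicate 1 (adjusted p = 0.0179) or 24 h replicate 1 (adjusted p = 0.0134), with values of 0.61 and 0.65, and with no filter on low values (adjusted p = 0.0108), and the DARS call was lost when only transcripts identical to annotated ones were summed (0.48, adjusted p = 0.0502). The transcripts of QARS share their locus in the table with USP19, and how reads were divided between them was not tested.

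Both genes belong to the multisynthetase complex, whose 8 enzyme genes moved in different directions. In FPKM, DARS and QARS were higher (below 0 h as TPM over all transcripts), MARS, IARS, KARS and RARS were lower, and EPRS and LARS did not pass the test. EPRS, which joins the glutamyl and prolyl enzymes in 1 protein, read 80.8, 86.6 and 94.3 FPKM at 0 h and 43.9, 56.0 and 75.3 FPKM at 24 h (-0.61 ± 0.18, adjusted p = 0.012), and without 24 h replicate 3 it was called (-0.81, adjusted p = 0.0013), as it was in TPM over all transcripts (0.00633) and in FPKM over transcripts of at least 300 bases (0.00962). LARS, for leucine, had -0.52 ± 0.16 (adjusted p = 0.014), and without 24 h replicate 3 it was called as well (-0.71, adjusted p = 0.00068), likewise as TPM over all transcripts (0.00959) and over the transcripts past the study's filter (0.00983). With the replicate number as a block EPRS and LARS were called lower too. In both genes the libraries at 24 h were all below those at 0 h, with replicate 3 the highest of the 24 h libraries.

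The 3 scaffold genes of the complex were all called lower, where 23.2% of all gene names were. AIMP2 fell from 44.1 ± 1.3 to 11.3 ± 1.08 FPKM (-1.92 ± 0.10, adjusted p = 7.2e-08), EEF1E1 from 99.5 ± 8.96 to 36.9 ± 9.22 FPKM (-1.45 ± 0.18) and AIMP1 from 55.4 ± 8.67 to 33.8 ± 6.91 FPKM (-0.71 ± 0.18, adjusted p = 0.0051). The AIMP1 call ended without replicate 1 or 2 of 0 h (adjusted p = 0.0263 and 0.0174) or without replicate 1 or 3 of 24 h (0.0228 and 0.0117). DARS over KARS, enzymes that share the complex, had a ratio of 0.528 ± 0.06 at 0 h and 1.52 ± 0.24 at 24 h, and QARS over EPRS 0.853 ± 0.041 and 2.18 ± 0.7, each without overlap. These pairs were picked by hand. DARS and QARS had all 24 h libraries above 0 h and KARS and EPRS all below, so the separation had to follow and adds nothing. Such a ratio is taken within a library and does not depend on scaling between libraries.

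Of the 12 cytosolic synthetase genes outside the complex, 8 were lower, 0 were higher and 4 did not pass, beside 23.2% of all gene names lower and 18.3% higher. The 4 were AARS, CARS, GARS and SARS, for alanine, cysteine, glycine and serine. SARS had a log2 fold change of -0.34 ± 0.12 (adjusted p = 0.029) and GARS -0.45 ± 0.16 (0.031), both with all libraries at 24 h below those at 0 h, while CARS (-0.17 ± 0.26) and AARS (-0.25 ± 0.31) overlapped. SARS was called lower as TPM over transcripts of at least 300 bases (-0.44, adjusted p = 0.00637) and over class code = alone (-0.43, 0.00718), that is, transcripts identical to annotated ones. GARS was called lower with only the 6 libraries of 0 and 24 h (0.0096) and with the replicate number as a block (0.00877). By structural class, class I had 6 of 10 lower and 1 higher and class II 6 of 10 lower and 1 higher, with QARS and DARS the higher ones in FPKM (neither as TPM over all transcripts).

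Among the mitochondrial enzymes, LARS2 fell from 15.4 ± 1.87 to 7.41 ± 0.677 FPKM (-1.0 ± 0.11, adjusted p = 1.2e-05), though over coding transcripts alone it did not pass (-0.91, adjusted p = 0.036). FARS2 (-0.99), AARS2 (-0.96), NARS2 (-0.87), YARS2 (-0.85), PARS2 (-0.70), EARS2 (-0.64), RARS2 (-0.49) and HARS2 (-0.36) were called lower too, for phenylalanine, alanine, asparagine, tyrosine, proline, glutamate, arginine and histidine. The calls of PARS2, EARS2, HARS2 and RARS2 depended on single libraries or on the fit. PARS2 was not called without any 1 of the 6 libraries (adjusted p = 0.011 to 0.0199) or with no filter on low values (0.0139), EARS2 not without 0 h replicate 2 (0.0101) and HARS2 not without 0 h replicate 1 (0.012) or 2 (0.0115). With only the 6 libraries of 0 and 24 h, RARS2 (0.0139), EARS2 (0.0102) and HARS2 (0.0126) did not pass, and as TPM over all transcripts HARS2 did not (0.0185).

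IARS2, TARS2, SARS2, VARS2, WARS2 and CARS2 did not pass the test. IARS2 read 62.9, 69.1 and 75.4 FPKM at 0 h and 73.5, 85.0 and 92.5 FPKM at 24 h (0.27 ± 0.13, adjusted p = 0.089; -0.59 as TPM), so its groups overlapped. With the replicate number as a block IARS2 was called higher (adjusted p = 0.00618), each 24 h library being above the 0 h library of its number, though the labels do not say what the numbers mark. TARS2 and SARS2 had the same log2 fold change of -0.02 with SEs of 0.15 and 0.11, and VARS2 -0.12 ± 0.13. Of the VARS2 transcripts 39 of 63 lie on alternate haplotypes, as for VARS, so its level and the ratio of VARS to VARS2 are less certain. WARS2 had 0.16 ± 0.33 as FPKM and -0.58 as TPM, with libraries from 3.68 to 7.75 FPKM at 0 h. CARS2 had -0.49 ± 0.15 (adjusted p = 0.017) with no overlap between the times, and it was called lower without 24 h replicate 1 (-0.66, adjusted p = 0.0014), as TPM over all transcripts (0.00983) or over those of at least 300 bases (0.00242), over class code = alone (0.00765) and with the block (0.00154).

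Compared as sums, the cytosolic total was 1902 ± 57.6 FPKM at 0 h and 1207 ± 43.0 FPKM at 24 h, 63.5% of the start. The mitochondrial total was 329 ± 4.4 and 257 ± 12.4 FPKM, 78.4% of the start. The ratio of the totals read 5.59, 5.87 and 5.90 at 0 h, 5.50, 5.58 and 6.14 at 1 h, 5.33, 5.42 and 6.08 at 2 h, and 4.79, 4.6 and 4.67 at 24 h. The 24 h libraries lay below all of the others, and the 1 and 2 h libraries overlapped those at 0 h. A sum is set largely by the abundant genes: as a mean over genes of log2(FPKM + 0.5), the cytosolic minus mitochondrial difference moved by -0.16 from 0 to 24 h, against -0.30 for the sums. No test was run on these scores.

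**Figure D3:**
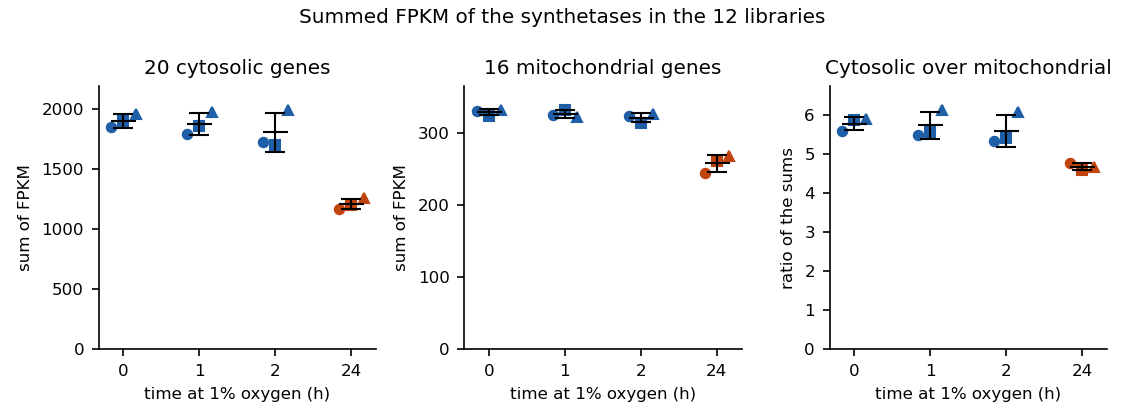
Sum of FPKM over 20 cytosolic genes, over 16 mitochondrial genes, and their ratio (axes from 0) against time at 1% oxygen; symbols are libraries (circle, square and triangle for replicates 1, 2 and 3), bars the mean ± SD of 3. Both sums are lowest at 24 h, at 63.5% and 78.4% of 0 h, and the ratio falls from a mean of 5.79 to 4.69.

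A cytosolic and a mitochondrial enzyme for the same amino acid could be set against each other in 17 pairs, with EPRS used against both EARS2 and PARS2, and FARS2 against both FARSA and FARSB. The ratio was lower at 24 h in all libraries for 8 pairs, higher for 1 and overlapping for 8. The share of other gene pairs that separate was not computed, so these counts have no background. Among single gene names, 32.8% were all lower at 24 h and 27.6% all higher. With 3 libraries against 3, the exact two-sided permutation test cannot go below p = 0.1, which 9 of the 17 pairs reached, and over the 20 ratios tested, the 3 cytosolic ones above included, the smallest adjusted p was 0.167.

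IARS over IARS2 read 1.80, 1.82 and 1.79 at 0 h and 0.807, 0.744 and 0.709 at 24 h, so that the mitochondrial transcript became the more abundant one. WARS over WARS2 had a mean of 14.9 ± 6.1 at 0 h and 3.31 ± 0.37 at 24 h, and TARS over TARS2 19.4 ± 0.47 and 9.69 ± 0.84. These 3 pairs share a cytosolic gene that fell and a mitochondrial gene that did not pass the test, with IARS2 passing under the block alone. AARS over AARS2 was the only cytosolic to mitochondrial pair higher without overlap, with 6.66, 9.35 and 12.5 at 0 h and 17.4, 18.2 and 13.8 at 24 h.

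**Figure D4:**
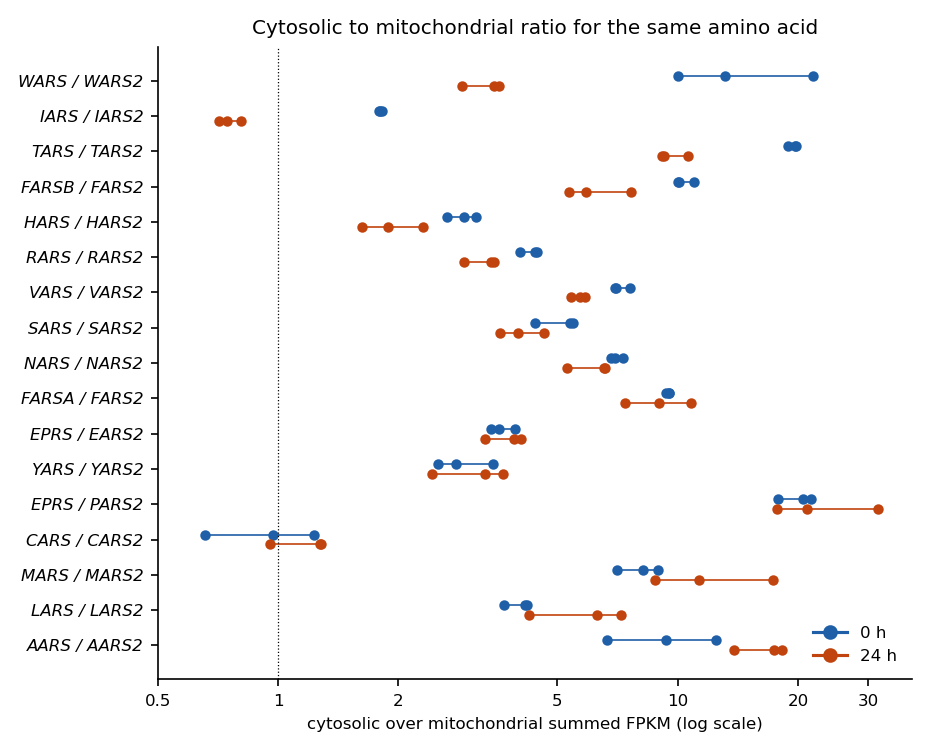
Ratio of cytosolic to mitochondrial summed FPKM (log axis) for 17 same-amino-acid pairs, ordered by the change of the mean log2 ratio; each point is 1 library, blue for 0 h and red for 24 h, with a line over the range. The ranges separate downwards in 8 pairs, led by WARS, IARS and TARS, and upwards only in AARS, with no share over other gene pairs computed. The dotted line marks equal levels.

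HARS and HARS2 start 85 bases apart in opposite directions, a head-to-head arrangement with HARS on the minus and HARS2 on the plus strand at chr5:140691370-140691455 (GRCh38.p14, RefSeq). The shared stretch from start to start is shown on the plus strand because the genes moved by different amounts:
HARS-HARS2: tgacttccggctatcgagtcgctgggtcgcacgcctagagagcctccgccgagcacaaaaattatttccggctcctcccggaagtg

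HARS read 100.4, 92.1 and 83.4 FPKM at 0 h and 54.8, 41.8 and 45.2 FPKM at 24 h (-0.96 ± 0.12), while HARS2 read 32.1, 31.7 and 31.5 FPKM at 0 h and 23.8, 25.9 and 24.1 FPKM at 24 h (-0.36 ± 0.08). The ratio of HARS to HARS2 was 2.89 ± 0.24 at 0 h and 1.93 ± 0.35 at 24 h without overlap. The table puts transcripts of ZMAT2 and of the protocadherin alpha genes at the HARS2 locus and of DND1 at the HARS locus, and their share in these sums was not tested.

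At 1 and 2 h no synthetase passed the test by limma, where 0.006% and 0.024% of all gene names were called in either direction. At an unadjusted p below 0.05 there were 0 synthetases at 1 h and 6 at 2 h (PARS2, HARS2, FARSA, SARS2, AARS2 and HARS), chosen here after their values were seen, beside 4.61% and 15.3% of all gene names, so the count at 2 h is near the background. The largest of these was PARS2, with 4.53, 4.01 and 4.58 FPKM at 0 h and 2.18, 3.5 and 2.43 FPKM at 2 h (log2 fold change -0.63 ± 0.18). As TPM, PARS2 was the single member of the 36 called at 2 h, where 3.75% of all gene names were called and their median was -0.94.

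The libraries at 0, 1 and 2 h differed among replicates in a manner shared by some synthetases, a pattern noticed in the values and given with no test. AARS read 42.0, 54.5 and 69.2 FPKM in replicates 1, 2 and 3 at 0 h, 37.4, 49 and 81.1 FPKM at 1 h, and 33.6, 43.4 and 77.0 FPKM at 2 h. Replicate 1 was the lowest and replicate 3 the highest at all 3 times for 7 of 20 cytosolic genes (AARS, CARS, GARS, MARS, QARS, SARS and TARS) and 2 of 16 mitochondrial genes (IARS2 and TARS2), against 6.71% of all gene names. The opposite order held for KARS alone among the 36, and for 6.31% of all gene names.

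Among the synthetases with this order the spread was largest in AARS and CARS. The ratio of replicate 3 to replicate 1 was 1.65, 2.17 and 2.29 for AARS and 1.58, 1.93 and 1.97 for CARS at 0, 1 and 2 h, and 1.16 and 0.871 at 24 h. In the list of 20 amino acid response genes, 8 of 19 tested had the same order (ASNS, PSAT1, PHGDH, PSPH, SHMT2, PCK2, SLC7A11 and SLC3A2), with a ratio for ASNS of 2.17, 3.00 and 3.01 and of 1.33 at 24 h. Of the 7 cytosolic synthetases with TGATGNAA in a promoter window, 5 had this order, and of the 9 matched genes without it 2 did. Among the mitochondrial genes, YARS2 had the letters without the order, and IARS2 and TARS2 the order without the letters. CARS, GARS, SARS, TARS and WARS had more than 1 window, and the order among all genes with the letters was not counted. The order was noticed in these same values, and a link with the letters was not tested. The standard errors of AARS and CARS at 24 h, 0.31 and 0.26, were the widest of the cytosolic genes, and the part of the culture or the library in this spread was not tested.

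**Figure D5:**
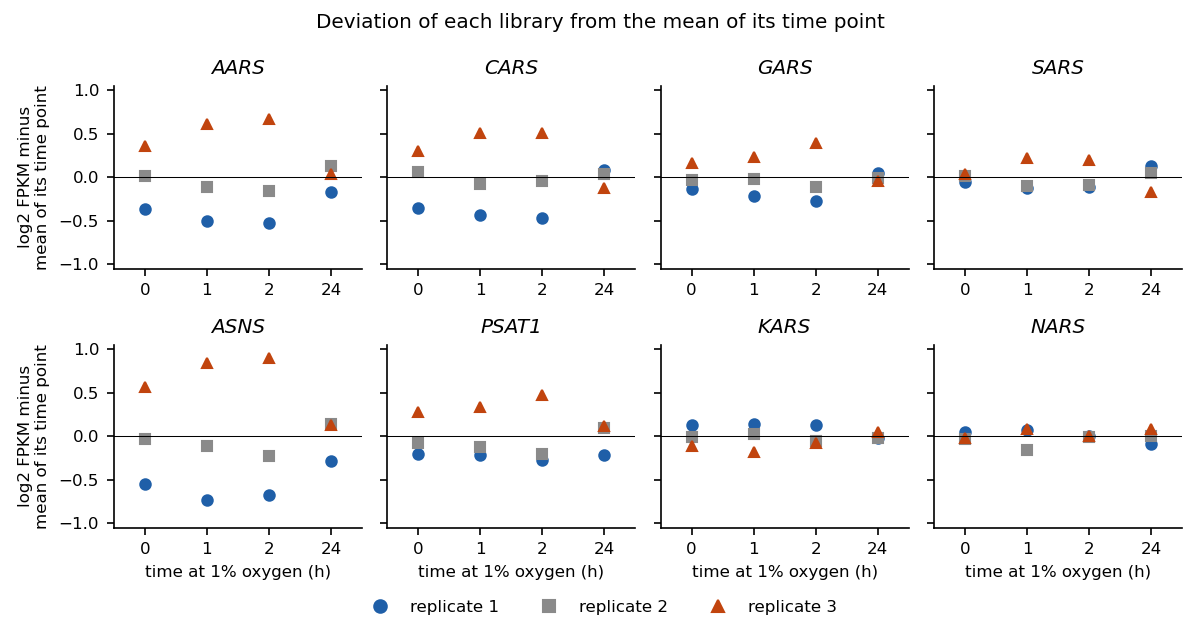
Log2 FPKM of each library minus the mean of its time point, for 6 cytosolic synthetases and for ASNS and PSAT1 of the amino acid response list; shape and colour give the replicate number. Replicate 3 is above and replicate 1 below the others at 0, 1 and 2 h in AARS, CARS, GARS, SARS, ASNS and PSAT1, while KARS shows the opposite order and NARS neither.

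The genes that work beside the synthetases were read from lists of names. The amino acid response list had 1 gene called higher and 7 lower at 24 h of 19 tested, with a median of -0.45, where 18.3% of all gene names were higher and 23.2% lower. STC2, a secreted glycoprotein, was higher (2.24), and PSAT1 and ATF5 (-1.80 and -1.59), a serine synthesis enzyme and a transcription factor, were lower, as was SLC3A2 (-1.50), the heavy chain of amino acid exchangers. The called genes with the smallest falls were PSPH (-0.74), the last enzyme of serine synthesis, and MTHFD2 (-0.45), a mitochondrial folate enzyme. The MTHFD2 call was lost as TPM (adjusted p = 0.0177), with median-of-ratios scaling (0.0135) and without any 1 of the 6 libraries (0.0101 to 0.035) other than 24 h replicate 2. ATF4 itself had -0.27 ± 0.19 and ASNS -0.52 ± 0.43, and neither passed the test in FPKM. As TPM over all transcripts ASNS was called lower (-1.36, adjusted p = 0.00904) and ATF4 was not called. On that scale the list had 9 genes lower and 1 higher, beside 28.9% and 1.73% of all gene names. VLDLR was too low to be tested.

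Among 10 genes that handle charged tRNA or its quality, 3 were called higher in FPKM and 1 lower, beside the same 18.3% and 23.2% of all gene names. The elongation factor genes EEF2 (0.98), EEF1A1 (0.94) and EEF1G (0.67) were the higher ones, and as TPM none of them was called, with values of 0.10, 0.06 and -0.20. AARSD1, which clears mischarged alanyl-tRNA, was lower (-1.13, and -1.95 as TPM).

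Of 20 genes that partner the mitochondrial enzymes, 14 were lower and 0 higher, with a median of -0.52, beside 23.2% and 18.3% of all gene names and their median of -0.05. The elongation factor gene GFM1 (-1.75), TRNT1, which adds the CCA end of tRNA (-1.48), and the elongation factor gene TSFM (-1.38) fell the most. The smallest called falls were those of MTO1 (-0.51, tied with GATC below), a tRNA modification enzyme, the elongation factor gene TUFM (-0.49) and MRRF (-0.45), a ribosome recycling factor. The TUFM call was lost as TPM (adjusted p = 0.0149) and without 0 h replicate 1 (0.0104), and the MRRF call as TPM (0.0133) and without 0 h replicate 1 (0.0174), 0 h replicate 2 (0.0141) or 24 h replicate 1 (0.0139). The genes of the glutamyl-tRNA amidotransferase, QRSL1 (-0.88), PET112 (-0.69) and GATC (-0.51), were lower together with EARS2 (-0.64), which charges the tRNA that this enzyme converts. Without 0 h replicate 1 the count was 11, its lowest.

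Transcripts were then tested singly, since a gene sum can hide a change of isoform. Of 656 transcripts of the synthetases, 228 passed the filter on low values, and 34 were lower and 1 higher at 24 h, beside 8.59% and 6.03% of all 62162 transcripts tested. Of 105 protein-coding transcripts 24 were lower and 1 higher, and of 60 retained-intron transcripts 1 was lower and 0 higher. Nonsense-mediated decay transcripts had 4 of 21 lower, those without a defined coding sequence 1 of 20 and untyped ones 4 of 22, with 0 higher. Shares by type over all genes were not computed, so no contrast between types is drawn. The higher one, ENST00000464962 of QARS, read 40.8, 44.6 and 45.8 FPKM at 0 h and 81.5, 74.4 and 67.4 FPKM at 24 h (0.76 ± 0.16, adjusted p = 0.0054). No transcript of DARS passed the test, and its main one, ENST00000264161, read 67.7, 59.0 and 69.2 FPKM at 0 h and 60.5, 102 and 132 FPKM at 24 h, so that the change of DARS rests on the sum.

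The noncoding share of a gene could be followed for 26 synthetases. It is the percent of FPKM in transcripts whose nearest reference is typed as retained intron, nonsense-mediated decay or without a defined coding sequence. Only coding and noncoding transcripts past the filter on low values entered it, and untyped ones were left out. The share was called higher in MARS and lower in SARS at an adjusted p below 0.05, beside 7.13% and 2.46% of the 5978 gene names tested. In MARS the share was 18.0%, 12.9% and 15.8% at 0 h and 21.9%, 36.4% and 28.8% at 24 h (adjusted p = 0.036), while its main coding transcript, ENST00000262027, fell from 65.7 ± 7.03 to 21.9 ± 3.02 FPKM. In SARS the share was 13.4%, 17.4% and 13.8% at 0 h and 7.78%, 8.20% and 10.7% at 24 h (adjusted p = 0.022). These calls depended on single libraries and on the fit. With only the 6 libraries of 0 and 24 h neither passed (adjusted p = 0.16 for MARS and 0.139 for SARS). With the replicate number as a block MARS did not pass (0.0551). With 1 library left out the adjusted p ranged from 0.00896 to 0.108 for MARS, which passed only without 24 h replicate 1 (0.00896) or 2 h replicate 2 (0.0432), and from 0.0204 to 0.0671 for SARS, which did not pass without 0 h replicate 2 (0.0514), 24 h replicate 1 (0.0557) or 24 h replicate 2 (0.0671).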

How the data were processed

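Poly(A) RNA of 12 HCT116 libraries was sequenced as paired strand-specific reads. The deposited table holds FPKM for 293768 transcripts, which the authors made by aligning reads to hg19, assembling each library with Cufflinks and merging the assemblies with Ensembl; base calling used CASAVA 1.8.2 per the labels, and scaling between libraries is not given in the sources used here. FPKM are not counts, and the table holds no read numbers from which a counting interval could be made.

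FPKM of transcripts matching an annotated one (class code =) or sharing a junction with it (j) were summed per gene name. Gene names above 0.5 FPKM in at least 3 libraries were tested with limma 3.58.1 (trend, two-sided) on log2(FPKM + 0.5), a scale that understates changes of low genes, with all 12 libraries in 1 fit, and p-values were adjusted by Benjamini-Hochberg over all 16680. Transcripts and noncoding shares (GENCODE types) were fitted likewise, and each fit was tested on simulated data. All 36 members are given; from the lists, the called genes with the 3 highest and 3 lowest log2 fold changes; ATF4 and ASNS and some other named genes were picked beyond that. Members and lists were chosen with earlier results of these data known. Gene symbols are those of the table. P-values measure the spread between cultures of 1 cell line. Python 3.11.15 and R 4.3.3 were used.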

Additional observations from a re-analysis of the deposited data

How the results depend on the processing

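Over 684 refits of single members at 24 h, 622 kept direction and side of the threshold, 29 lost the call, 18 gained it and 15 changed sign; the cause was not tested. As TPM over all transcripts the sign changed for DARS (-0.27), QARS (-0.17), IARS2 (-0.59) and WARS2 (-0.58). WARS2 also read -0.07 over coding transcripts and -0.12 without 0 h replicate 3. Without 1 library WARS2 ranged from -0.12 to 0.37, SARS2 from -0.10 to 0.05 and TARS2 from -0.10 to 0.05. Of these, SARS2 read 0.02 with median-of-ratios scaling and 0.05 without 0 h replicate 1 or 24 h replicate 2, and TARS2 read 0.09 over class code = alone, 0.02 over coding transcripts or with median-of-ratios scaling, and 0.04, 0.05 and 0.00 without 0 h replicate 3, 24 h replicate 1 and 24 h replicate 3.

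Leaving out 1 library gave 12 to 16 cytosolic and 7 to 10 mitochondrial genes called at 24 h, 0 to 0 at 1 and at 2 h, 27 to 36 transcripts, 0 to 3 noncoding shares and a log2 change of the cytosolic to mitochondrial ratio of -0.33 to -0.29; for the lists it gave 2 to 3 scaffold, 7 to 8 amino acid response, 4 to 4 charged tRNA and 11 to 14 mitochondrial partner genes. A 2-fold minimum left 6 cytosolic and 2 mitochondrial genes in FPKM, and 9 and 4 as TPM over transcripts of at least 300 bases. As TPM, 1 synthetase was called at 2 h and 1 gene of the charged tRNA list at 24 h. Transcript calls numbered 21 from the 6 libraries of the contrast alone and 67 at an adjusted p below 0.05, against 35. No share over all gene names or transcripts is given for leaving out 1 library or for these transcript settings. A general shift in calls cannot be told apart from a change in the members. Noncoding share calls numbered 0 from those 6 libraries, 0 at an adjusted p below 0.01 and 6 over transcripts above 1 FPKM, against 2. The mean over genes moved the ratio by -0.16, against -0.30.

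The labels do not say what a replicate number marks. Of 18 correlations between deviations of same-numbered libraries 10 were above 0.1 (-0.0833 to 0.428) and 13 were highest with their own number; all 3 were above 0.1 between 0 and 2 h (0.129 to 0.362) but not between 0 and 24 h (-0.000785 to 0.242). With the replicate block, 17 cytosolic genes were called (EPRS, GARS and LARS added, lower) and 12 mitochondrial genes (CARS2 lower and IARS2 higher added), beside 45.9% of all gene names against 41.5% without it, 0 at 1 and at 2 h, 38 transcripts, 1 noncoding share, and 3 scaffold, 10 amino acid response, 4 charged tRNA and 13 mitochondrial partner genes.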
